A study of Mus musculus with 9 samples.

Results

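MYC is a transcription factor that binds DNA as a pair with MAX. MAX has no activation domain of its own and also pairs with the MXD proteins, MNT and MGA, which bring corepressors to the same DNA element and so work against MYC. MLX resembles MAX, pairs with some MXD proteins and MNT, and is the partner of the glucose-sensing factors MLXIP (MondoA) and MLXIPL (ChREBP). In T cells MYC is induced after antigen recognition and drives growth in cell size, metabolism and ribosome production, while MXD proteins are best known from cells that are resting or leaving the cell cycle. The set described here holds 9 genes of this network, Myc, Max, Mlx, Mxd1, Mxi1, Mxd3, Mxd4, Mnt and Mga, chosen by gene symbol from the 23936 genes with a symbol in the expression table. All 9 were present, and all 9 were among the 10185 genes that reached 1 FPKM in at least 3 libraries and so could be tested. FPKM is a fragment count scaled to transcript length and to the number of mapped fragments. Levels of different genes can thus be set side by side, but only approximately. The libraries still differed by transcript length, as described below.

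The libraries came from mouse OT-I CD8+ T cells, which carry a transgenic T cell receptor for a peptide of ovalbumin. Naive cells were taken from spleen, spleen-primed cells from spleen and MLN-primed cells from the mesenteric lymph node (MLN), with 3 libraries in each group and 9 in all. The wider study asks how retinoic acid received while cells are being primed bears on CD103+ CD8 T cells that later reside in the intestine. The sample titles add the words iv and oral to the spleen-primed and MLN-primed groups. Organ and these words change together, so their parts in any difference cannot be told apart. The mouse strain, age, antigen dose, time after priming, sorting gate and number of animals behind a library are details not given in any source used here. No label ties the 3 libraries of a group to separate animals, so p-values reflect the scatter of these libraries alone, and that scatter may be technical.

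Depth was estimated from the regular steps that single fragments leave in the FPKM of weakly expressed genes, at 19500000 to 32100000 fragments per library. At that depth Mxd3 in naive cells rested on 29 to 34 fragments, and every other member on at least 195 in each library, a counting error of at most 7.2%. These errors cover counting only. The CD8 T cell markers Cd8a, Cd8b1, Cd3d, Cd3e and Cd3g summed to 2894 to 3203 FPKM in the naive, 1980 to 2040 in the spleen-primed and 1377 to 1458 in the MLN-primed libraries. Cd4 and Foxp3 together stayed at or below 1.13 FPKM in every library. Dendritic cell markers were higher in naive libraries (24.5 to 41.2 FPKM summed) than in spleen-primed (0.510 to 1.81) or MLN-primed ones (0.173 to 0.385), where Siglech (spleen-primed) and Clec9a and Flt3 (MLN-primed) were at 0. In naive cells Flt3 averaged 0.589, Clec9a 0.473 and Siglech 0.237 FPKM, so nearly all of the naive sum came from elsewhere in the list. The myeloid list summed to 3.34 to 12.7, 44.4 to 48.3 and 15.4 to 18.5 FPKM in the same order of groups. Its rise came from Itgam (0.326, 30.3 and 9.30 FPKM) and Cd68 (1.06, 15.6 and 7.69), which effector T cells can also express. Lyz2 (5.79, 0.863 and 0.170 FPKM), Csf1r and Emr1 were lower in both primed groups. The B cell list summed to 11.1 to 14.9, 6.46 to 8.26 and 11.2 to 14.5 FPKM, nearly all of it Cd79b, and Pax5 averaged at most 0.0455. The stromal and endothelial list, at 37.0 to 43.7 FPKM in naive and at most 4.57 in primed libraries, was nearly all Pecam1 (39.4, 3.64 and 2.54). Of its other genes, Cdh5 averaged 0.0564, 0.350 and 0.640 FPKM, Col1a1 at most 0.0671, and Col3a1 and Pdgfra were at 0 throughout. The part of these markers in the changes of the members was not tested. The 6 proliferation genes Mki67, Top2a, Ccnb1, Birc5, Mcm2 and Pcna summed to 144 to 171 FPKM in naive cells, 1599 to 1664 in the spleen-primed and 1709 to 1781 in the MLN-primed cells. In bulk RNA, fewer cells of a type and less RNA per cell cannot be told apart.

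Primed libraries also differed within their groups by transcript length. Relative to its group mean, spleen-primed library 3 gained 0.08 log2 units per doubling of transcript length and MLN-primed library 1 lost 0.09, the largest trends of the 9 libraries. For Myc, Mnt, Mga and Mxd1, which deviated most in these libraries, changes are given with and without them. All changes below are differences in log2(FPKM + 1) from limma with all 9 libraries in 1 model, with Benjamini-Hochberg adjustment over all 10185 genes and two-sided tests at an adjusted p of 0.05. Adding 1 FPKM understates the change of weakly expressed genes, so ratios of mean FPKM are given for the larger changes and for the weakly expressed members.

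The element shared by MYC-MAX and MXD-MAX pairs is the E-box CACGTG, which reads the same on both strands. It was searched in RefSeq promoter windows of 300 bases, 250 before and 50 after an annotated start (assembly GRCm38.p6), of which 10 belonged to 8 of the members. Myc had no window and was not searched. Of the 8 members with a window, 4 held the element, Max, Mlx, Mnt and Mxd4, against 8.09% of all 27025 genes with a window (7.15% of 32851 windows). The 4 stretches are shown because they place the network's own element beside its own genes. Each is 30 bases, 5′ to 3′ on the gene's strand, with the E-box in capitals.
Max, chr12:76962234-76962263, minus strand: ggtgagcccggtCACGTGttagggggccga
Mlx, chr11:101087238-101087267, plus strand: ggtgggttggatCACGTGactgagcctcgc
Mnt, chr11:74830789-74830818, plus strand: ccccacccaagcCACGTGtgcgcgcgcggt
Mxd4, chr5:34187912-34187941, minus strand: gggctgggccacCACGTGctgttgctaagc
The E-box began 3 bases before the annotated start of its window in Max, 40 in Mlx, 123 in Mnt and 219 in Mxd4. Such a start can lie inside the gene span given below, as in Max, Mlx and Mnt. A match is a description of these letters, and no binding was measured. The 4 genes did not move together, since in the values as deposited Mlx was higher in both primed groups than in naive cells while Max, Mnt and Mxd4 were lower.

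Myc (chr15:61985341-61990361, plus strand) was highest in naive cells, lowest in spleen-primed cells and between them in MLN-primed cells. Naive libraries held 28.3, 34.5 and 34.0 FPKM, spleen-primed libraries 11.7, 13.9 and 17.7, and MLN-primed libraries 21.5, 26.0 and 25.2. The 3 groups did not overlap. The mean fell from 32.3 ± 3.43 FPKM (SD, n = 3) in naive to 14.4 ± 2.99 in spleen-primed cells, a log2 change of -1.12 ± 0.14 (SE; limma adjusted p = 4.32e-05), so that naive cells held 2.24 times as much. Without spleen-primed library 3 the change was -1.27. The MLN-primed mean was 24.2 ± 2.38 FPKM, a change from naive of -0.40 ± 0.14 (limma adjusted p = 0.0244). That smaller difference lost its call without naive library 2 (limma adjusted p = 0.0798), without naive library 3 (0.0767), without MLN-primed library 1 (-0.32, 0.0751) and with no filter on low values (0.0937). It was larger, -0.79, after quantile normalisation. Between the primed groups, Myc was 1.68 times as high in MLN-primed cells, a log2 difference of 0.72 ± 0.14 (95% interval 0.41 to 1.04; limma adjusted p = 0.00407), and its rise ranked 265 among the 10185 genes. It was 0.95 (limma adjusted p = 0.000461) with spleen-primed library 3 and MLN-primed library 1 left out. In that setting the remaining spleen-primed libraries have negative length trends (-0.0514 and -0.0275) and the remaining MLN-primed ones positive trends (0.0631 and 0.0261). The part of these trends in the larger difference was not tested.

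**Figure D1:**
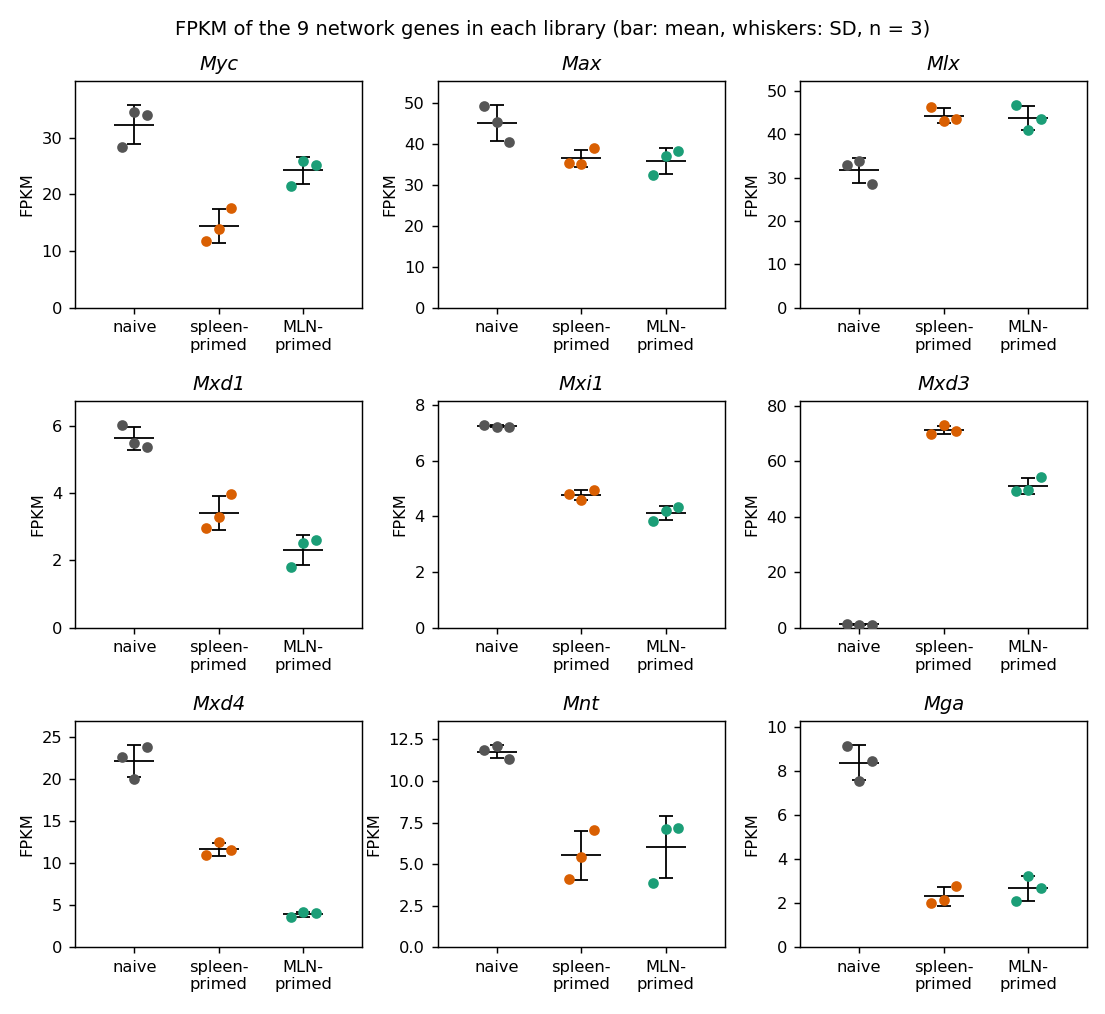
FPKM of each of the 9 genes (one panel each, axis from 0) in the naive, spleen-primed and MLN-primed libraries. Points are libraries, the horizontal line is the group mean and whiskers are the SD (n = 3). Mxd3 is the gene near 0 in naive cells and high in both primed groups. Myc is lowest in spleen-primed cells, and Mxd4 steps down from naive to spleen-primed to MLN-primed.

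Max (chr12:76937269-76962323, minus strand), the shared partner, had the smallest changes against naive cells in the values as deposited. It measured 49.1, 45.4 and 40.4 FPKM in the naive, 35.3, 34.9 and 38.9 in the spleen-primed and 32.3, 36.9 and 38.2 in the MLN-primed libraries. Each primed group lay wholly below the naive group, and the primed groups overlapped. The changes from naive were -0.30 ± 0.09 in spleen-primed (limma adjusted p = 0.0148) and -0.32 ± 0.09 in MLN-primed cells (limma adjusted p = 0.00939). The first lost its call without naive library 1 (-0.23, limma adjusted p = 0.0562) or spleen-primed library 2 (-0.27, 0.0532). Under quantile normalisation both were larger, -0.70 and -0.77. The MLN-primed minus spleen-primed difference was -0.02, with a 95% interval of -0.23 to 0.18 (limma adjusted p = 0.877).

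Mlx (chr11:101086707-101092207, plus strand), the MAX-like partner, went the other way. It rose from 33.0, 33.8 and 28.4 FPKM in naive to 46.3, 43.1 and 43.5 in the spleen-primed and 46.7, 41.0 and 43.5 in the MLN-primed libraries, with no overlap between either primed group and naive. The changes were 0.47 ± 0.08 (limma adjusted p = 0.000454) and 0.45 ± 0.08 (limma adjusted p = 0.000536). Both calls were lost under quantile normalisation, with changes of 0.10 (limma adjusted p = 0.327) and 0.04 (limma adjusted p = 0.672). The primed groups differed by -0.02, with a 95% interval of -0.20 to 0.17 (limma adjusted p = 0.893). Mlx shares 67 bases with Psmc3ip on the opposite strand, which lay at 2.57 to 19.7 FPKM, and whether the quantification used strand is not given in any source used here.

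With Max lower and Mlx higher, the ratio of Mlx to Max FPKM went from 0.707 ± 0.0371 (SD, n = 3) in naive to 1.22 ± 0.0963 in the spleen-primed and 1.23 ± 0.185 in the MLN-primed libraries. The ratio of Max to Myc FPKM was 1.41 ± 0.286 in the naive, 2.57 ± 0.405 in the spleen-primed and 1.48 ± 0.0512 in the MLN-primed libraries. Max RNA thus exceeded Myc RNA in every library, and by most in spleen-primed cells.

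The 4 MXD-type genes encode short repressors that pair with MAX and recruit the SIN3 corepressor, and they split into 1 that rose and 3 that fell. Mxd3 (chr13:55325170-55329900, minus strand), the member best known from dividing cells, had the largest change of the set. It measured 1.33, 1.07 and 1.01 FPKM in naive libraries against 70.0, 73.1 and 70.9 in the spleen-primed and 49.2, 49.8 and 54.5 in the MLN-primed libraries. The mean was 62.9 times as high in the spleen-primed and 45.1 times as high in the MLN-primed as in naive cells, with changes of 5.09 ± 0.08 (limma adjusted p = 3.83e-11) and 4.61 ± 0.08 (limma adjusted p = 3.6e-11). Among 10185 genes, its rise ranked 46 in the spleen-primed and 77 in the MLN-primed comparison. MLN-primed cells held less Mxd3 than spleen-primed cells, by -0.47 ± 0.08 (95% interval -0.65 to -0.30; limma adjusted p = 0.00185), with no overlap between the groups. Mxd3 shares 103 bases with Prelid1 on the opposite strand, which lay at 171 to 499 FPKM, and its part in the Mxd3 values was not tested.

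Mxd4 (chr5:34176580-34187710, minus strand) fell in 2 steps. It measured 22.6, 20.0 and 23.7 FPKM in the naive, 11.0, 12.5 and 11.6 in the spleen-primed and 3.60, 4.16 and 4.08 in the MLN-primed libraries. No group overlapped another. The changes from naive were -0.87 ± 0.09 in spleen-primed (limma adjusted p = 1.3e-05) and -2.22 ± 0.09 in MLN-primed cells (limma adjusted p = 9.89e-09), where naive cells held 5.60 times as much. The primed groups also differed, and the gap of -1.36 ± 0.09 (95% interval -1.56 to -1.15; limma adjusted p = 1.95e-05) made Mxd4 2.95 times as high in spleen-primed cells. This fall ranked 40 among the 10185 genes.

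Mxd1 (chr6:86647044-86669234, minus strand) and Mxi1 (chr19:53310128-53373293, plus strand) were lower in both primed groups than in naive cells. Mxd1 measured 6.02, 5.47 and 5.38 FPKM in the naive, 2.95, 3.30 and 3.96 in the spleen-primed and 1.79, 2.52 and 2.60 in the MLN-primed libraries. Its changes from naive were -0.59 ± 0.12 (limma adjusted p = 0.00144) and -1.01 ± 0.12 (limma adjusted p = 3.08e-05), with naive cells holding 1.65 and 2.44 times as much. They were -0.68 without spleen-primed library 3 and -0.89 without MLN-primed library 1. The groups did not overlap, yet the MLN-primed minus spleen-primed difference of -0.42 ± 0.12 (limma adjusted p = 0.0288) kept its call in 13 of 19 alternatives, the fewest of any call on a member. It was lost without spleen-primed library 2 (limma adjusted p = 0.0714), spleen-primed library 3 (0.0902) or MLN-primed library 1 (0.0791), and with both of the last left out the difference was -0.21 (0.143).

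Mxi1 was even within groups, at 7.28, 7.23 and 7.22 FPKM in the naive, 4.79, 4.60 and 4.96 in the spleen-primed and 3.85, 4.18 and 4.33 in the MLN-primed libraries. It fell by 0.51 ± 0.08 on the log2 scale in spleen-primed (limma adjusted p = 0.000161) and by 0.69 ± 0.08 in MLN-primed cells (limma adjusted p = 1.56e-05), with naive cells holding 1.51 and 1.76 times as much. The primed groups did not overlap, but their difference of -0.18 (95% interval -0.35 to -0.01) did not pass (limma adjusted p = 0.112). It passed under median-of-ratios scaling (-0.22, limma adjusted p = 0.0479) and with no filter on low values (-0.18, 0.046).

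Because Mxd3 rose while the other 3 fell, the summed MXD level and its makeup changed separately. The 4 genes summed to 36.1 ± 2.04 FPKM (SD, n = 3) in the naive, 91.2 ± 2.40 in the spleen-primed and 61.5 ± 3.63 in the MLN-primed libraries. Without Mxd3 the sums ran in another order, 35.0 ± 1.99, 19.9 ± 0.994 and 10.4 ± 0.981. Mxd4 made up 61.2% ± 2.22 of the sum in naive cells, 12.8% ± 0.508 in the spleen-primed and 6.42% ± 0.382 in the MLN-primed cells. The share of Mxd3 was 3.15% ± 0.438, 78.2% ± 0.660 and 83.2% ± 1.04.

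The level of Myc beside its antagonists therefore depended on whether Mxd3 was counted. The ratio of Myc to the 4 MXD genes was 0.898 ± 0.131 in the naive, 0.158 ± 0.0315 in the spleen-primed and 0.394 ± 0.0306 in the MLN-primed libraries, highest in naive cells. Leaving out Mxd3, it was 0.927 ± 0.133, 0.724 ± 0.123 and 2.34 ± 0.0499, highest in MLN-primed cells. MLN-primed libraries ranged from 2.29 to 2.39 in that ratio, above the highest naive library at 1.06. Both ratios were higher in every MLN-primed than in every spleen-primed library. These are RNA ratios, and protein was not measured.

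**Figure D2:**
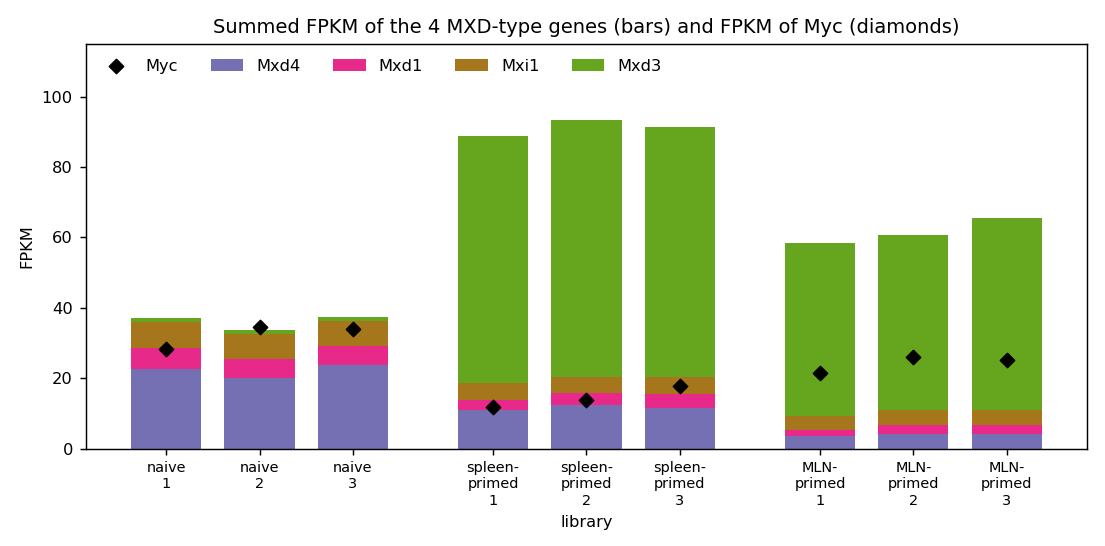
Stacked bars give the FPKM of Mxd4, Mxd1, Mxi1 and Mxd3 in each of the 9 libraries, and the diamond gives Myc in the same library, on 1 FPKM axis from 0. Mxd3 is a thin cap on the naive bars and most of each primed bar. Myc sits near the top of the naive bars and well inside the primed bars, but above the summed Mxd4, Mxd1 and Mxi1 in all 3 MLN-primed libraries.

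Mnt and Mga encode larger repressors. Mnt (chr11:74830806-74845725, plus strand), a broadly expressed MAX partner, measured 11.9, 12.1 and 11.3 FPKM in naive libraries. It was lower in spleen-primed libraries, at 4.12, 5.43 and 7.07, and in MLN-primed libraries, at 3.86, 7.09 and 7.15. Its changes from naive were -0.99 ± 0.21 (limma adjusted p = 0.00178) and -0.90 ± 0.21 (limma adjusted p = 0.00294), with naive cells holding 2.12 and 1.95 times as much. The first was -1.15 without spleen-primed library 3 and the second -0.65 without MLN-primed library 1, and both stayed called. On the log2 scale, no other member was spread as widely within the primed groups.

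Mga (chr2:119872503-119970129, plus strand), the scaffold that brings MAX into the Polycomb-type complex PRC1.6, fell further. It measured 9.17, 7.56 and 8.47 FPKM in the naive, 2.0, 2.17 and 2.79 in the spleen-primed and 2.11, 3.24 and 2.71 in the MLN-primed libraries. Naive cells held 3.62 times as much as spleen-primed and 3.13 times as much as MLN-primed cells, with changes of -1.51 ± 0.14 (limma adjusted p = 3.78e-06) and -1.36 ± 0.14 (limma adjusted p = 6.64e-06). With the length trend removed (each library against the mean of all 9), its changes were smaller, -0.94 and -0.81, and still called. They were -1.60 without spleen-primed library 3 and -1.24 without MLN-primed library 1. For both genes the primed groups overlapped. The MLN-primed minus spleen-primed difference was 0.09 for Mnt (95% interval -0.39 to 0.56; limma adjusted p = 0.79) and 0.15 for Mga (-0.16 to 0.45; limma adjusted p = 0.462). With spleen-primed library 3 and MLN-primed library 1 both left out, these became 0.50 (limma adjusted p = 0.0105) and 0.36 (limma adjusted p = 0.0417). The libraries that remain in that setting have only negative length trends in the spleen-primed group and only positive ones in the MLN-primed group.

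Within the primed groups, the size of the deviations differed between members. Mga has the longest mean transcript of the set at 13618 bases, then Mxd1 at 4666 and Mnt at 4590, and Mxd3 has the shortest at 1327. In spleen-primed library 3, with the trend toward long transcripts, Mnt stood 0.33 log2 units above its group mean, Myc 0.29 and Mxd3 at -0.01. In MLN-primed library 1, with the opposite trend, Mnt stood at -0.49, Myc at -0.16 and Mxd3 at -0.05. Removing the trend from all libraries (each against their common mean) changed no call on a member, but shifted the changes from naive by length. They moved upward for Mga, Mxd1, Mnt and Mxd4, the longest members, and downward for the others. In spleen-primed cells, Mxd1 went from -0.59 to -0.40, Mnt from -0.99 to -0.80, Mlx from 0.47 to 0.35 and Max from -0.30 to -0.40. In MLN-primed cells the same genes went from -1.01 to -0.82, -0.90 to -0.71, 0.45 to 0.33 and -0.32 to -0.42. The part of length in these changes was not tested.

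**Figure D3:**
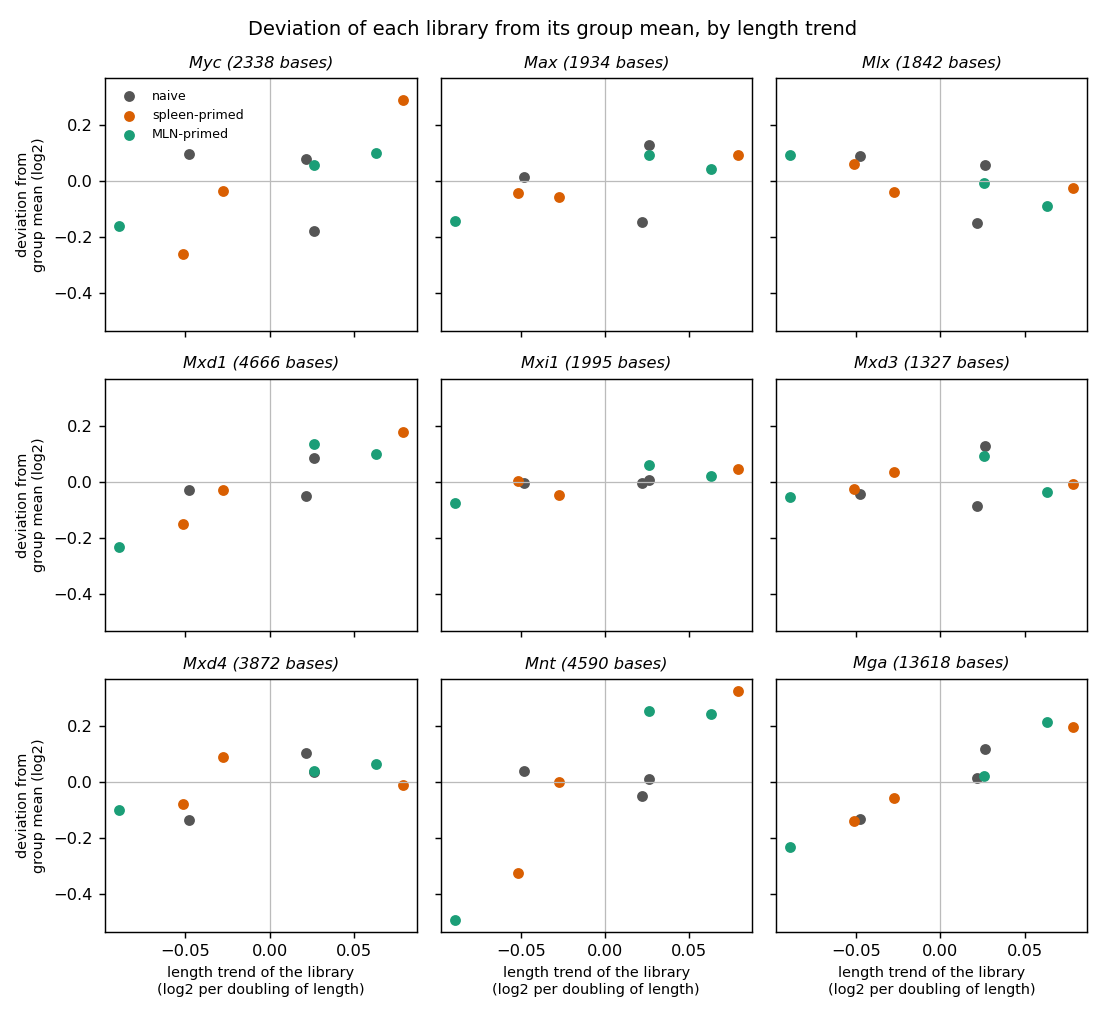
Each panel is 1 gene with its mean transcript length. The x axis is a library's length trend (log2 FPKM gained per doubling of transcript length relative to its group) and the y axis the gene's deviation from its group mean in log2 units. In the primed libraries Mnt, Mga, Mxd1 and Myc are low on the left and high on the right, while Mxd3 and Mxi1 stay close to 0.

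Ordered by level, naive cells ran from Max through Myc, Mlx, Mxd4, Mnt, Mga, Mxi1 and Mxd1 to Mxd3, and only Myc and Mlx overlapped among neighbours. In spleen-primed cells Mxd3 led, followed by Mlx, Max, Myc, Mxd4, Mnt, Mxi1, Mxd1 and Mga. There Myc overlapped Mxd4, and Mnt overlapped Mxi1. In MLN-primed cells the order was Mxd3, Mlx, Max, Myc, Mnt, Mxi1, Mxd4, Mga and Mxd1. There Mnt overlapped Mxi1, Mxi1 overlapped Mxd4 and Mga overlapped Mxd1. Mxd3 thus went from the last place to the first, and Mxd4 went from the fourth place to the seventh in MLN-primed cells. The 9 genes summed to 165 ± 4.60 FPKM in the naive, 194 ± 6.64 in the spleen-primed and 174 ± 8.76 in the MLN-primed libraries.

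Against naive cells, 2 members were called higher and 7 lower in the spleen-primed comparison, where 75.8% of all genes tested were called, 43.1% higher and 32.7% lower. The same count, 2 higher and 7 lower, was found in MLN-primed cells, where 78.7% of all genes were called, 45.5% higher and 33.2% lower. A call on 9 of 9 genes stands against a background in which most genes changed. The 2 comparisons share the naive libraries, so their likeness is no separate observation. The median change of the members was -0.59 in the spleen-primed and -0.69 in the MLN-primed cells, beside 0.10 and 0.15 over all genes tested. Between the primed groups, 1 member was called higher, 3 lower and 5 neither, where 30.4% of all genes were called, 17.3% higher and 13.1% lower. The median member difference was -0.02, beside 0.03 over all genes. The 4 members called were Myc, upward, and Mxd4, Mxd3 and Mxd1, downward, a number to be read against that background.

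**Figure D4:**
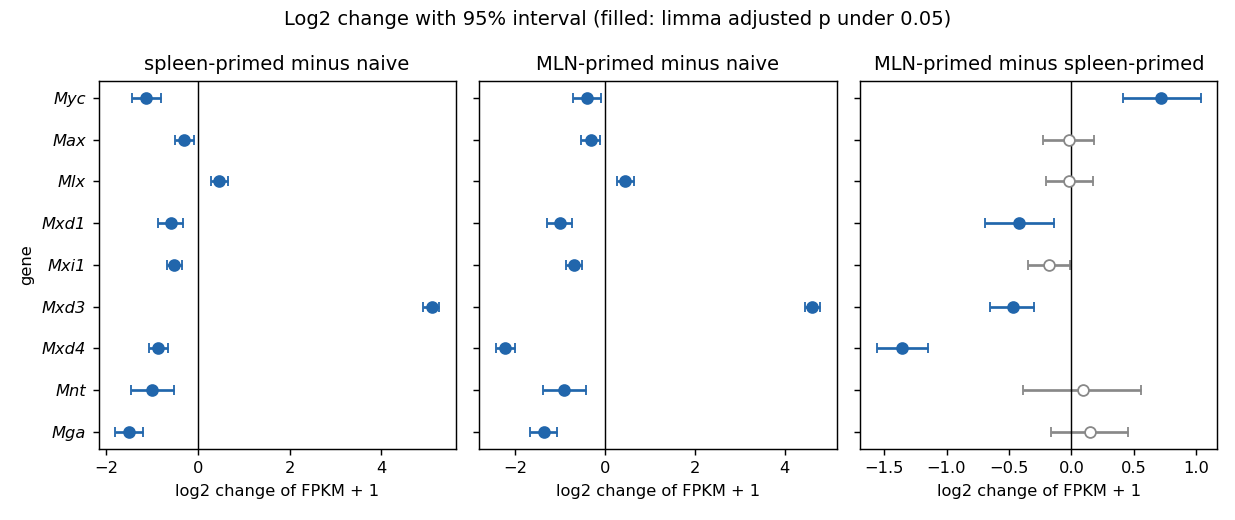
Log2 change of FPKM + 1 for each gene in the 3 comparisons, with 95% intervals from limma. Filled points passed an adjusted p of 0.05 over all 10185 genes. Against naive cells Mxd3 stands far to the right in both comparisons, and between the primed groups Myc lies to the right of 0 and Mxd4 farthest to the left.

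Scaling bears on the direction of small changes against naive. The median change over all genes was 0.101 in spleen-primed cells as deposited, -0.010 after median-of-ratios scaling and -0.067 after quantile normalisation. In MLN-primed cells it was 0.145, -0.007 and -0.041. Of the genes called in the spleen-primed comparison, 56.8% were higher as deposited and 46.6% after quantile normalisation. No member changed direction against naive under either scaling.

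Textbook targets that MYC activates were read from a list of 39 growth genes, of which 38 were tested. The list was chosen with earlier results of these data known, so its counts are a description and no independent test. In the comparison of the primed groups they differed in the same direction as Myc, since 35 were higher in MLN-primed cells and none was lower. The other 3 did not pass, Ccnd2 and Slc2a1 among them. Over all genes tested, 17.3% were higher and 13.1% lower. The median of the list was 0.80 beside 0.03 over all genes. The mean log2(FPKM + 1) of the list lay between 5.39 and 5.45 in spleen-primed libraries and between 6.11 and 6.18 in MLN-primed libraries. Srm, spermidine synthase, averaged 29.5 FPKM in the naive, 31.5 in the spleen-primed and 84.4 in the MLN-primed cells (MLN-primed minus spleen-primed 1.39, limma adjusted p = 8.72e-06). Hspd1, the mitochondrial chaperonin, averaged 74.9, 197 and 503 FPKM (1.35, limma adjusted p = 1.08e-05). Mybbp1a averaged 49.5, 29.9 and 71.3 FPKM (1.25, limma adjusted p = 0.00157), and Nolc1, a nucleolar phosphoprotein, 21.0, 18.5 and 44.0 (1.21, limma adjusted p = 0.0149). For Nolc1 the primed groups overlapped, at 13.1 to 27.8 FPKM in the spleen-primed and 25.8 to 55.1 in the MLN-primed libraries.

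Against naive cells the list was read in both primed groups, in which Myc RNA was lower. In MLN-primed cells 35 of the 38 genes were higher and 1 was lower, with a median of 1.15, where 45.5% of all genes were higher and 33.2% lower. In spleen-primed cells 20 were higher (16 after quantile normalisation), 4 lower and 14 not called, with a median of 0.36. That is to be read against 43.1% higher and 32.7% lower over all genes, and the same shares are the background of the lists that follow. The largest rises included Dctpp1, a nucleotide pyrophosphatase, at 21.1, 152 and 215 FPKM in the naive, spleen-primed and MLN-primed cells, and Mcm4, a subunit of the replicative helicase, at 24.2, 135 and 164. Hk2, a hexokinase, went from 0.370 to 4.28 and 7.77 FPKM. The 4 that fell in spleen-primed cells were Ccnd2, cyclin D2 (-1.0), Mybbp1a (-0.74), Polr1b, a subunit of RNA polymerase I (-0.59), and Apex1, a DNA repair endonuclease (-0.36). Of these, Ccnd2 was also lower in MLN-primed cells (-1.12). The number that fell in spleen-primed cells was 12 after quantile normalisation and 7 after median-of-ratios scaling.

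The proliferation genes rose against naive cells too, and their part in the list's values was not tested. From spleen-primed to MLN-primed cells, Top2a differed by -0.14 (limma adjusted p = 0.573), Birc5 by 0.02 (0.902) and Mki67 by 0.35 (0.797), while Mcm2 was higher in MLN-primed cells by 0.39 (0.00121). Mki67 was too scattered to compare, with an SE of 0.85 against 0.10 for Birc5. It ran from 13.4 to 87.1 FPKM in the spleen-primed and from 8.32 to 84.2 in the MLN-primed libraries.

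Genes that MYC is known to lower moved in both directions. Of 8 listed, 5 were tested. Cdkn1b, the cell cycle inhibitor p27, averaged 45.8, 18.7 and 12.4 FPKM in the naive, spleen-primed and MLN-primed cells, with changes from naive of -1.25 and -1.81 and a difference between the primed groups of -0.56 (limma adjusted p = 0.000526). Cdkn1a, the inhibitor p21, went the other way, from 0.220 FPKM in naive to 6.14 in each primed group. Ndrg2 averaged 7.08, 3.83 and 3.75 FPKM. In all, 1 was higher and 3 were lower in each primed group than in the naive. Between the primed groups 1 was lower in MLN-primed cells, where 13.1% of all genes were lower.

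**Figure D5:**
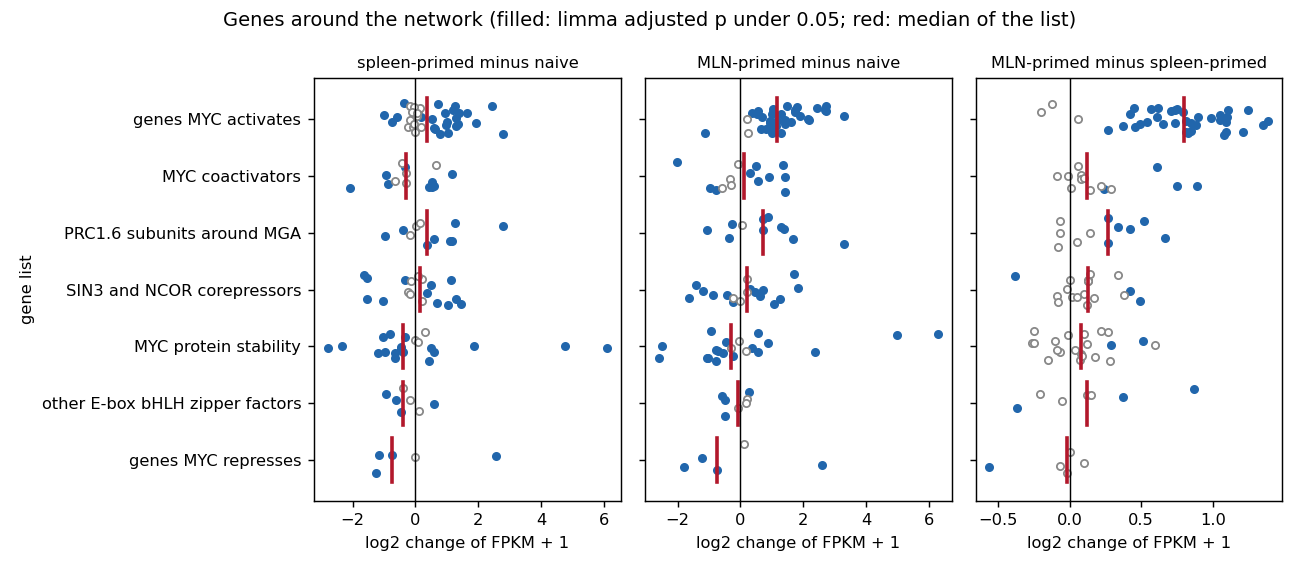
Log2 change of FPKM + 1 for the genes of 7 lists around the network, 1 panel for each comparison. Each point is a gene, filled where limma's adjusted p was under 0.05, and the red bar is the median of the list. In the MLN-primed minus spleen-primed panel the genes MYC activates lie to the right with a median of 0.80, and the medians of the other lists lie between -0.02 and 0.27.

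Other proteins of the network were mostly at low RNA levels. The MYC paralogues Mycn and Mycl averaged at most 0.0440 and 0.303 FPKM in any group and were not tested. Mlxipl averaged at most 0.0326 FPKM. Mlxip, the MLX partner MondoA, averaged 10.5, 4.56 and 5.06 FPKM in the naive, spleen-primed and MLN-primed cells, with changes from naive of -1.09 (limma adjusted p = 0.00205) and -0.95 (limma adjusted p = 0.00446). It thus fell where its partner Mlx rose. Txnip, a target of MondoA and MLX that restrains glucose uptake, averaged 314, 74.2 and 28.7 FPKM. Its changes from naive were -2.07 and -3.40, and it was lower in MLN-primed cells than after spleen priming by -1.33 (limma adjusted p = 1.88e-05). Arrdc4, another such target, averaged 0.686, 0.0474 and 0.0274 FPKM and was not tested.

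Among 14 coactivator genes that MYC recruits, 5 were higher and 4 lower in spleen-primed than in naive cells (over all genes 43.1% and 32.7%). In MLN-primed cells 7 were higher and 3 lower than in naive cells (45.5% and 33.2%). Between the primed groups 4 were higher in MLN-primed cells and none lower (17.3% and 13.1%). Ruvbl1 and Ruvbl2, the paired helicases of the TIP60 complex, averaged 25.1 and 31.8 FPKM in the naive, 36.4 and 48.8 in the spleen-primed and 68.5 and 83.0 in the MLN-primed cells. Their differences between the primed groups were 0.89 (limma adjusted p = 4.37e-05) and 0.75 (limma adjusted p = 7.95e-05). The acetyltransferase Kat2a averaged 19.2, 15.2 and 23.6 FPKM, called lower in spleen-primed than in naive cells and higher in MLN-primed cells than after spleen priming. Crebbp, another acetyltransferase, fell from 8.24 to 1.3 and 1.45 FPKM. The list's medians were -0.30, 0.10 and 0.12 in the 3 comparisons.

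Of 11 subunits of PRC1.6 beside MGA and MAX, 6 were higher and 2 lower in spleen-primed than in naive cells, and 7 higher and 3 lower in MLN-primed cells. Tfdp1, the dimer partner of E2F factors, rose from 13.7 FPKM to 99.3 and 143. Cbx1 rose from 15.5 to 38.5 and 51.8, and Wdr5 from 16.2 to 35.9 and 43.5. Rybp fell from 12.7 to 5.90 and 5.52. Between the primed groups 6 were higher in MLN-primed cells and none lower (over all genes 17.3% and 13.1%). The largest rise was that of Pcgf6, the subunit that defines the complex, at 6.66 against 11.3 FPKM (0.67, limma adjusted p = 0.00121). Mga itself fell against naive while most of these subunits rose. The medians were 0.38, 0.72 and 0.27.

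The SIN3 and NCOR corepressors are the complexes through which MXD proteins and MNT act. Of 18 genes, 7 were higher and 5 lower in spleen-primed than in naive cells, 8 higher and 6 lower in MLN-primed cells, and 2 higher and 1 lower between the primed groups. Against naive these counts lie near the shares over all genes, 43.1% and 32.7% in the first comparison and 45.5% and 33.2% in the second. Between the primed groups the shares over all genes were 17.3% and 13.1%. The histone-binding subunit Rbbp7 averaged 85.3, 208 and 279 FPKM and the deacetylase Hdac1 68.0, 150 and 164. Arid4b fell from 13.9 to 3.84 and 3.83 FPKM and Arid4a from 17.7 to 5.67 and 6.32. Sin3b, a scaffold of the complex, was lower in MLN-primed cells than after spleen priming, at 112 against 146 FPKM (-0.38, limma adjusted p = 0.0158). The medians were 0.14, 0.21 and 0.12.

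Regulators of MYC protein stability included both large rises and large falls, with 6 of 21 higher and 12 lower in spleen-primed cells (over all genes 43.1% and 32.7%), and 7 higher and 11 lower in MLN-primed cells (45.5% and 33.2%). The mitotic kinases Plk1 and Aurka, which are also known as proliferation genes, rose from 0.538 and 1.68 FPKM to 104 and 71.4 in the spleen-primed and 118 and 83.5 in the MLN-primed cells. The deubiquitinase Usp28 fell from 33.2 to 3.93 and 4.99 FPKM, and the kinase Pim2 from 93.5 to 17.5 and 14.6. Between the primed groups, 2 of the 21 were higher in MLN-primed cells, where 17.3% of all genes were higher and 13.1% lower. Among the 2 was the ligase subunit Skp2 (0.51, limma adjusted p = 0.00815), and the other 19 did not pass. The medians were -0.39, -0.29 and 0.08.

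Of 9 other E-box factors with the same type of DNA-binding domain, 7 were tested. Tfap4, known as a MYC target in activated T cells, was lowest in spleen-primed cells like Myc, at 9.96 FPKM in the naive, 4.68 in the spleen-primed and 9.32 in the MLN-primed cells. It was lower in spleen-primed than in naive cells (-0.95, limma adjusted p = 1.97e-05) and higher in MLN-primed cells than after spleen priming (0.87, limma adjusted p = 0.000406), and its change from naive to MLN-primed cells of -0.09 did not pass. Usf1 and Usf2 were lower in both primed groups, at 28.7, 20.8 and 20.1 and at 50.2, 32.3 and 35.5 FPKM. In all, 1 was higher and 3 lower in each primed group than in the naive. Between the primed groups 2 were higher and 1 lower (over all genes 17.3% and 13.1%). The medians were -0.39, -0.09 and 0.12. Of the cofactors that restrain MYC, Bin1 averaged 41.3, 62.9 and 54.0 FPKM and rose against naive by 0.60 and 0.38, and Zbtb17 (MIZ1) averaged 5.89, 5.23 and 6.18 and passed in no comparison.

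The genes with the pattern most like each member were ranked by Pearson correlation of log2(FPKM + 1) over the 9 libraries among 7740 genes. This is a description, since all points share 3 groups. The number of close genes also depends on the size of a member's change beside its scatter within groups. It is therefore no measure of how common a pattern is. For Myc, 11 genes had a correlation over 0.95. The closest was Eif4b, a translation initiation factor, at 0.980 (163, 103 and 138 FPKM), followed by Mier2, Ctage5, Wipi2 and Polr3e. Max had 6 such genes, led by Paip2b, Ift140 and Cnot4. Mxd3 had 1476 such genes, and the closest were Pdcd1, the inhibitory receptor PD-1 (0.443, 32.8 and 25.2 FPKM), Stx11 and Anxa2. Mxi1 had 774 such genes, led by Fam102a, Clcf1 and Arid5a, and Mga had 605, led by Tnfrsf22, Lef1 (197, 26.6 and 32.2 FPKM) and Aff4. Mxd1 had 316, led by Tmem63a, Rbl2 and Ralgds, and Mlx had 272, led by Ndufb10, Uck1 and Kbtbd4. Mnt had 250, led by Cdk13, Phf12 and Rgp1. For Mxd4, with 208 such genes, the closest were Slfn2 (202, 123 and 66.7 FPKM), Gbp2 and Ifi203.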

How the data were processed

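RNA was extracted with a column kit and made into stranded mRNA libraries, per the labels' protocols. The authors aligned and quantified reads with TopHat and Cufflinks on mm10, per the submitters' processing notes, and deposited gene FPKM values. Their versions, options and use of strand are not given in any source used here. The table held 24067 entries, and 131 without a symbol (0.0479% of the summed FPKM) were left out. FPKM totals were 613322 to 720410 per library. FPKM are not counts, so limma 3.58.1 (R 4.3.3, trended variance) was fitted to log2(FPKM + 1) in 1 model over the 9 libraries, for genes at 1 FPKM or more in 3 or more libraries. The script was tested on simulated data first. Figures, promoter searches and ratios used Python 3.11.15 with numpy 2.4.6, pandas 2.3.3 and matplotlib 3.10.9.

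The members and lists were chosen with earlier results of these data known. Genes named from a list were every gene of lists with 4 or fewer genes, and otherwise up to 4 called genes in each comparison and direction with the largest change, among genes with a mean of at least 5 FPKM in the higher group. Ccnd2 and Slc2a1, as genes that did not pass, and the proliferation genes are named outside that rule, after their values were seen. Some genes of the lists are counted but not reported here by name. The coordinates of the members and the promoter sequences are RefSeq's on GRCm38.p6, the assembly that mm10 stands for.

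Replicate numbers are shared between the groups' titles. Deviations of same-numbered libraries from their group means correlated at 0.16, 0.12 and 0.24 between naive and spleen-primed, at 0.14, -0.24 and 0.12 between naive and MLN-primed, and at 0.64, -0.24 and 0.49 between the primed groups. Differently numbered libraries reached 0.06 between naive and spleen-primed, 0.23 between naive and MLN-primed and 0.51 between the primed groups. These correlations cannot show whether the numbers pair the libraries, so the main fit used no pairing. Adding the replicate block changed no call on a member.

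The 19 alternatives were another pseudocount (0.1), no filter and a filter at 5 FPKM, median-of-ratios scaling, quantile normalisation, fits to the libraries of each comparison alone, the replicate block, a robust variance model, removal of the length trend, leaving out spleen-primed library 3 and MLN-primed library 1 together, and leaving out each library in turn.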

Additional observations from a re-analysis of the deposited data

How the results depend on the processing

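Over the 19 alternatives, the log2 changes of members kept their direction and side of the threshold in 487 cases, lost a call in 14, gained one in 4 and changed sign in 8. All 57 counts of genes called over the whole table stayed within 1.5 times the main count. Quantile normalisation left 1 member called higher in place of 2 in each comparison with naive, Mxd3. Leaving out spleen-primed library 3 and MLN-primed library 1 together gave 3 members called higher between the primed groups, in place of 1. The changes of sign all concerned uncalled MLN-primed minus spleen-primed differences. Max stood at 0.09 with both of those libraries left out, and over the fits without 1 library it reached 0.02 (without spleen-primed library 3) and 0.05 (without MLN-primed library 1). Mlx stood at 0.01 without spleen-primed library 1 and 0.03 without MLN-primed library 2. Mnt stood at -0.07 without spleen-primed library 1, -0.03 without MLN-primed library 2 and -0.04 without MLN-primed library 3, and over the fits without 1 library it ranged from -0.07 to 0.34. The cause was not tested. Of the other lost calls, Mxd1 between the primed groups had an adjusted p of 0.0952 in limma with no filter and 0.0548 in the fit to those 2 groups alone.

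With the replicate block, Myc between the primed groups was 0.72 (limma adjusted p = 0.000881), and no call on a member changed in any comparison. The log2 difference of Myc between the primed groups ranged from 0.59 (without spleen-primed library 1) to 0.95 (with both libraries left out) and was called in all 19 alternatives, as was that of Mxd4, from -1.54 to -1.30. The number of genes MYC activates called higher in MLN-primed cells than after spleen priming ranged from 33 to 35. Other lists were less steady in that count. It ranged from 3 to 10 for the coactivators (main fit 4) and from 2 to 8 for the SIN3 and NCOR corepressors (2). For MYC protein stability it ranged from 1 to 6 (2), and for the other E-box factors from 1 to 3 (2). Over all lists and comparisons, 1069 counts stayed within 1.5 times the main count and 71 did not. Depth limits Mxd3 in naive cells most, with a counting error of 19% in the library with the fewest Mxd3 fragments, so its fold change is less certain than its direction.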
